A study of Mus musculus with 6 samples.

Results

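Inpp4b and Pik3c2g encode enzymes that act on phosphoinositides, the phosphorylated inositol lipids of cell membranes. The long non-coding RNA (lncRNA) table of mouse pancreatic islets held 20 transcripts lying in these genes, 14 in Inpp4b and 6 in Pik3c2g, among 3093 transcripts in all. A transcript was taken as lying in a gene when its genomic interval (build GRCm38) overlapped the GENCODE M21 body of that gene by more bases than any other gene. Both genes were chosen by their NCD and HFD FPKM values, which enter every diet ratio below, so the differences between diets in them are given as descriptions, with no test.

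Islets, the endocrine cell clusters of the pancreas that hold the insulin-secreting beta cells, came from C57BL/6 mice fed for 8 weeks either normal chow (NCD, 3 libraries) or the high-fat diet that the labels call high-fed (HFD, 3 libraries). The labels give no sex or age, and do not say whether a library came from 1 mouse or from a pool. The deposited table gave 1 FPKM per transcript and diet (fragments scaled to the length of the transcript and to the total of mapped fragments), with no value per library, so no spread between mice and no p-value can be attached to any difference below. Of 49 marker genes of islet, exocrine, vascular, stromal and immune cells, only Epcam, listed for duct cells, held a transcript. The tissue label therefore could not be checked, and fewer cells of a type cannot be told apart from less RNA per cell.

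Phosphoinositide kinases add phosphates to the inositol ring and phosphatases remove them, and the balance sets how strongly kinases such as Akt are recruited to the membrane below the insulin and growth factor receptors. Inpp4b encodes inositol polyphosphate-4-phosphatase type II, which removes a phosphate from a lipid product of the phosphoinositide 3-kinase pathway and is known as a brake on Akt signalling. Pik3c2g encodes the gamma isoform of the class II phosphoinositide 3-kinases, best known from liver, where it acts on endosomes in insulin signalling. In beta cells, insulin and glucose both act through this pathway on growth and survival.

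All 20 transcripts were intronic: none touched an annotated exon. A transcript in an intron, in a file without strand, cannot be told from unspliced RNA of the gene itself, so the gene names below say where a transcript lies and not that the mRNA was measured. Inpp4b (ENSMUSG00000037940.17) runs over 785 kb of the plus strand, chr8:81342556-82127914. Its 14 transcripts lay between 6.28 and 276 kb from the annotated start, within the first 35.1% of the gene, and all were upstream of the first coding base, 399 kb from the start. No annotated start site fell among them, the next start after the first cluster of starts being at position 81715200. Pik3c2g (ENSMUSG00000030228.18) runs over 382 kb of the plus strand, chr6:139587221-139969284. Its 6 transcripts lay far downstream, between 198 and 362 kb from the start, and 5 annotated start positions fell among them.

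The RefSeq start windows shown here differ in base composition. They are shown because the 14 Inpp4b transcripts lie downstream of the first, with no other annotated start in between, and the last lies at the end of the intron that holds 4 of the 6 Pik3c2g transcripts. Each is 240 bases of the plus strand from RefSeq (GRCm38.p6), ending 10 bases before a RefSeq start, with CG dinucleotides in capitals.
Inpp4b, chr8:81342312-81342551: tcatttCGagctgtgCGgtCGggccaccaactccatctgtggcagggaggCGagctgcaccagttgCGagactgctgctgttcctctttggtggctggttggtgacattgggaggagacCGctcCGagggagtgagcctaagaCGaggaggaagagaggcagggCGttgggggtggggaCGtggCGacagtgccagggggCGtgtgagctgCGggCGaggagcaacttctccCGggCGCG
Pik3c2g, chr6:139613822-139614061: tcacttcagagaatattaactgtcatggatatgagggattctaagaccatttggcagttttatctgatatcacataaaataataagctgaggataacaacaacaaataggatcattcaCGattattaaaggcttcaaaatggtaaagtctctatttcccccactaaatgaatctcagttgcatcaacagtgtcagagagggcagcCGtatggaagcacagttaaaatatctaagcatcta
Pik3c2g, chr6:139841195-139841434: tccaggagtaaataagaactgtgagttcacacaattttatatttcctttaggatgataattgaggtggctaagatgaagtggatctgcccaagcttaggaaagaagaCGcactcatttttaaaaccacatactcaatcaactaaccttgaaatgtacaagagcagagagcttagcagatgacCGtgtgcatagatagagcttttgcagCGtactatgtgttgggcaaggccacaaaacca
The Inpp4b window held 17 CG and was 65.0% G or C. The Pik3c2g windows, 26.9 and 254 kb from the annotated gene start, held 2 and 3 CG at 35.8% and 40.4% G or C. No window at the annotated gene start itself is shown for Pik3c2g. Among 32851 RefSeq windows of this length the median was 5 CG, and 21.7% held at least 17, 69.7% at least 3 and 80.2% at least 2. CG reads the same on both strands, and the count is a property of the sequence, not a measurement in these islets.

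Inpp4b transcripts were mostly higher on the high-fat diet. The value was higher in HFD for 12 of 14, against 20.0% of all 3093 transcripts, and was at least 2-fold higher for 3 (6.27% of all transcripts). For 0 of 14 it was at least 2-fold lower (41.9% of all). The ratio used here and below is log2 of (HFD FPKM + 0.1) over (NCD FPKM + 0.1), on which the 2-fold rule was applied. It understates the difference of low transcripts. The median log2 ratio of the 14 was 0.63, that of all transcripts was -0.82 and that of the 2054 intronic ones -0.98. Of the intronic ones, 13.5% were higher and 86.5% lower in HFD, 4.43% at least 2-fold higher and 48.8% at least 2-fold lower. All 14 ratios lay above both of those medians, and after subtracting the table's median that of Inpp4b was 1.45. This contrast chose the genes, so nothing is read from these counts.

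The first Inpp4b intron, 130 kb long, held 3 transcripts, all higher in HFD. Transcript 1 (numbered from the gene start) at chr8:81348840-81350213 was at 0.357 (NCD) and 0.539 FPKM (HFD), a log2 ratio of 0.48. Transcript 2, chr8:81395357-81395707, was at 0.695 and 3.95 FPKM (log2 ratio 2.35). It had the highest HFD level and the highest ratio of the 14, and at 351 bases it was also the shortest. Transcript 3, chr8:81397650-81398149, lay 1.94 kb further on and was at 0.153 and 0.765 FPKM (1.78), the lowest NCD level of the gene.

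The second intron, 242 kb to the next annotated exon, held the other 11 transcripts. Of these, 9 were higher in HFD. Transcripts 4 to 12 stood close together, filling 36.8% of a 77.2 kb stretch, with NCD values of 0.343 to 0.863 FPKM and HFD values of 0.472 to 1.27 FPKM. The stretch thus had a low level in both diets, and 8 of its 9 transcripts were higher in HFD. Transcript 4, chr8:81472874-81475054, began 54 bases after the end of the second exon and was at 0.406 (NCD) and 0.658 FPKM (HFD) (log2 ratio 0.58). Transcript 5 (3489 bases) was at 0.498 and 0.662 FPKM (0.35). Transcript 6 (3916 bases) was at 0.460 and 0.801 FPKM (0.68).

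Transcript 7, which began only 507 bases after transcript 6 ended, went the other way. It was at 0.863 (NCD) and 0.707 FPKM (HFD), a log2 ratio of -0.26. Transcript 8, chr8:81498265-81499512, was at 0.422 and 0.962 FPKM (1.02), the third of the transcripts past 2-fold. As deposited, neighbours a few kb apart in 1 intron therefore differed in the sign of the ratio. The counting interval of transcript 7, given below, held 0, and after subtracting the table's median all 14 ratios were above 0.

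Transcript 9 (1354 bases) was at 0.350 (NCD) and 0.526 FPKM (HFD), a log2 ratio of 0.47. Transcript 10 (3794 bases) was nearly level between the diets, at 0.462 and 0.472 FPKM (0.03). Transcript 11 (1209 bases) was at 0.698 and 1.27 FPKM (0.78). Transcript 12 was the longest of the 20 at 8813 bases, chr8:81541224-81550036, and rested on the most fragments of any member. It was at 0.343 and 0.635 FPKM (0.73).

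The last members stood apart from this stretch and were short. Transcript 13, chr8:81600704-81601205, had the highest NCD level of the gene and the lowest ratio, with 1.39 (NCD) and 0.758 FPKM (HFD) (log2 ratio -0.80). Transcript 14, chr8:81618031-81618578, was at 0.414 and 0.768 FPKM (0.76). The lowest ratio and the 2 highest, those of transcripts 13, 3 and 2, belonged to intervals of 502 bases or fewer. The other 11 ratios ran from -0.26 to 1.02.

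**Figure D1:**
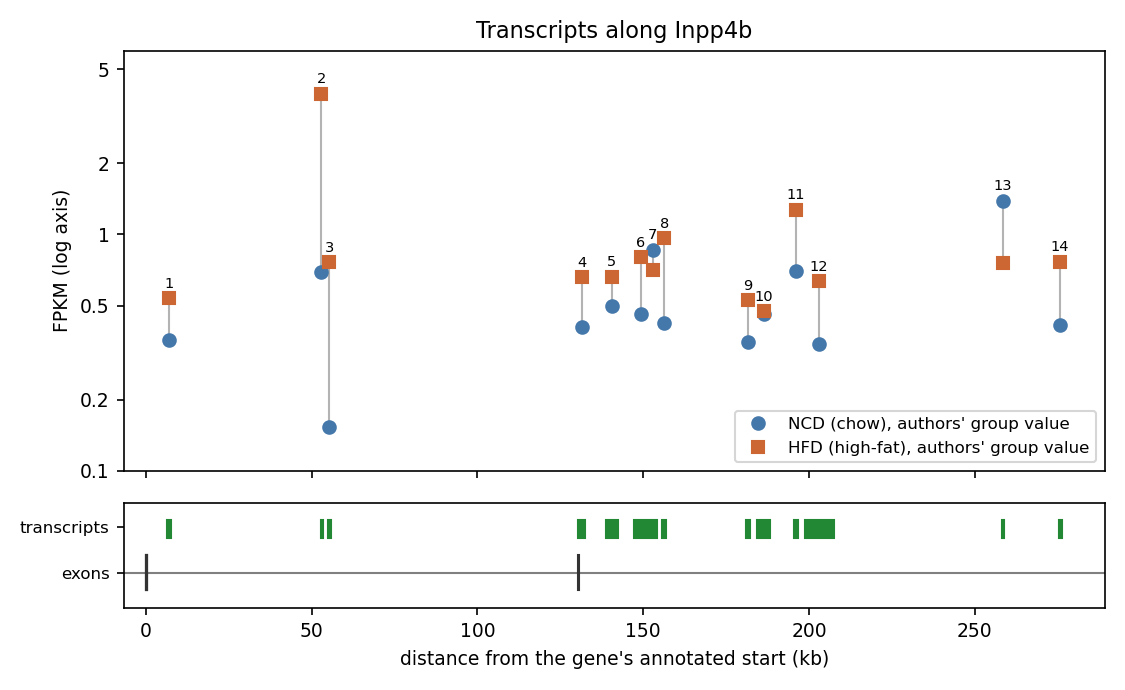
FPKM (log axis) of the 14 Inpp4b transcripts in NCD (circles) and HFD (squares), 1 authors' value per diet, against distance from the annotated gene start in kb, with annotated exons (black) and transcript intervals (green, drawn at least 0.8 kb wide) below. HFD lies above NCD in 12 of 14, the exceptions being transcripts 7 and 13, and only 2 exons lie in the part shown.

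The depth behind these values was read from their steps. Between 400 and 700 bases, FPKM values below 8 fragments were compared with whole numbers of fragments (within 0.15). Among the values that the fit was made on, 118 of 118 in HFD and 44 of 48 in NCD fell on them. In transcripts left out of a fit at random, 66 of 66 and 23 of 25 did so, where 30% would by chance. The fitted totals (in units of 1e6 fragments) were 79.2 in HFD and 65.5 in NCD, with mean fragment lengths of 287 and 295 bases. One fragment of a 500-base transcript was then worth 0.0590 FPKM in HFD and 0.0741 in NCD. Estimated fragments below hold only for unspliced intervals and, above 700 bases, extend the fit beyond the lengths it was made on. They are rounded to whole numbers. In longer or more abundant members the unrounded estimates were often not near a whole number (64.5 in NCD for Pik3c2g transcript 1, given as 65), so there the steps give no check. They are given for the 17 members of at least 400 bases, and their 95% intervals are exact binomial ones on the log2 ratio of fragments, without the added 0.1. They cover counting error only, not variation between mice.

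The low NCD levels of Inpp4b rested on few fragments in the short transcripts and on many in the long ones. Transcript 3 stood for about 2 fragments in NCD and 13 in HFD, with an interval of 0.23 to 5.56. Transcript 13 stood for 19 and 13 (-2.02 to 0.22) and transcript 14 for 7 and 16 (-0.49 to 2.40), and both intervals held 0. Transcript 12 stood for 191 and 429 fragments, with a narrow interval of 0.64 to 1.15. Transcript 6 stood for 109 and 230 (0.47 to 1.14) and transcript 8 for 26 and 73 (0.54 to 1.91). For transcript 7, the lower one inside the dense stretch, 120 fragments in NCD faced 119 in HFD (-0.67 to 0.09). Of the 13 Inpp4b intervals, 6 held 0 and 7 lay above it. Those holding 0 included transcripts 1 (-0.14 to 1.36), 9 (-0.16 to 1.37) and 10 (-0.35 to 0.41), all higher in HFD as deposited. Summed over the 13 Inpp4b transcripts with an estimate, there were 825 fragments in NCD (exact Poisson 95% interval 770 to 883) and 1474 in HFD (1399.7 to 1551). The sums include the members described below that entered the table through HFD alone, transcripts 3 and 12 among them. For these members the sign of the ratio was fixed by that entry. The intervals and sums describe depth only.

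**Figure D2:**
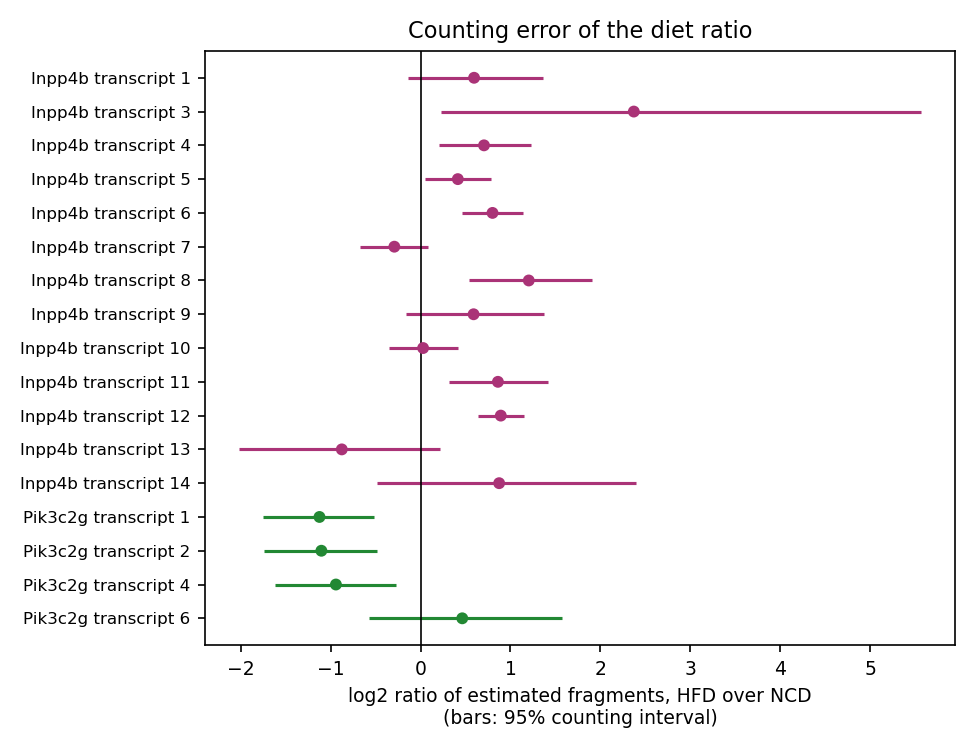
Log2 ratio of estimated fragments, HFD over NCD, for the 17 members of at least 400 bases (points), with 95% counting intervals (bars) and 0 (line). The bars show precision only, since the values chose the genes: that of Inpp4b transcript 3 is the widest (0.23 to 5.56) and that of transcript 12 the narrowest (0.64 to 1.15).

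Inpp4b transcripts were low in level, and the way a transcript enters the table bears on such members. Every transcript in the table had at least 0.410 FPKM in 1 of the diets. Of the 14 Inpp4b transcripts, 5 (transcripts 1, 3, 4, 9 and 12) were below that value in NCD and so could be present only by being higher in HFD, as all 116 such transcripts of the table were. Among the 9 Inpp4b transcripts at or above it in both diets, 7 were higher, and their median log2 ratio was 0.68. Of the 2679 transcripts of the table at or above it in both, 502 (18.7%) were higher, with a median of -0.77. The 9 were still part of a gene chosen on this ratio, so nothing is read from their count.

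The plot of the ratio against level sets both genes among the 2034 intronic transcripts outside them. Members of 1 gene may come from a single RNA, so they are not independent of each other.

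**Figure D3:**
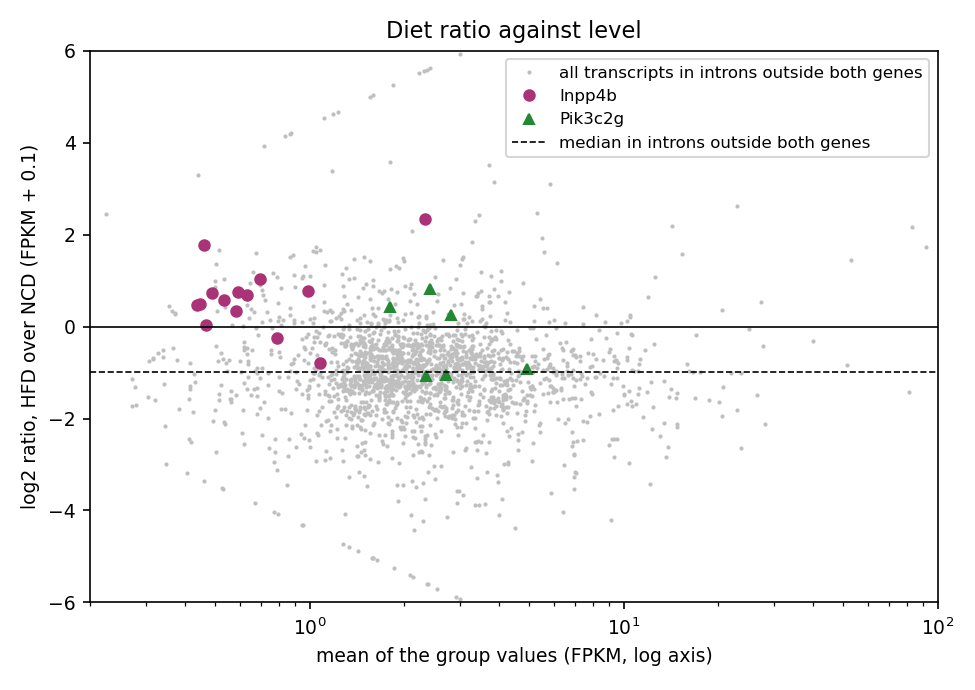
Log2 ratio, HFD over NCD (FPKM + 0.1), against the mean of the diet values (FPKM, log axis) for Inpp4b (circles), Pik3c2g (triangles) and 2034 intronic transcripts outside both genes (grey), of which 45 lie beyond the axes. Inpp4b sits at low level, mostly above the solid line at 0, while Pik3c2g sits at middle level, 3 above 0 and 3 near the dashed median of introns outside both genes (-0.99).

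Pik3c2g transcripts were divided between the diets. Of the 6, 3 were higher and 3 lower in HFD, where 20.0% of all transcripts were higher. At least 2-fold lower were 2 of 6 (41.9% of all transcripts) and at least 2-fold higher 0 (6.27%). The median log2 ratio was -0.33 as deposited and 0.49 after subtracting the table's median. The 4 transcripts of a 68.9 kb intron (chr6:139772504-139841444) came first along the gene. Transcript 1, chr6:139785257-139785856, was at 3.22 (NCD) and 1.48 FPKM (HFD), a log2 ratio of -1.07. Transcript 2, chr6:139796108-139796655, was at 3.71 and 1.73 FPKM (-1.06). These are the 2 past 2-fold, and both lay close to the median of intronic transcripts (-0.98). Transcript 4, chr6:139831383-139831791, was also lower in HFD, at 6.46 and 3.36 FPKM (-0.92), and was the most abundant of the 20 members in NCD.

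The remaining Pik3c2g transcripts were higher in HFD. Transcript 3, chr6:139813935-139814211, lay in the same intron between lower neighbours, at 2.55 (NCD) and 3.07 FPKM (HFD) (log2 ratio 0.26). It was 277 bases long, shorter than the fitted mean fragment. Transcript 5, chr6:139868047-139868436, in a 13.5 kb intron, was at 1.72 and 3.10 FPKM (0.82). Transcript 6, chr6:139948366-139948790, in a 15.4 kb intron, was at 1.52 and 2.08 FPKM (0.43). The diets thus differed in opposite directions in the long intron and in the later ones, apart from transcript 3. Of the 946 intronic transcripts outside both genes of 277 to 600 bases, the span of the Pik3c2g members, 150 (15.9%) were higher, with a median of -1.17.

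Counts set limits on how far this division can be read. Transcripts 1 and 2 stood for 65 and 62 fragments in NCD against 37 and 36 in HFD, with intervals of -1.75 to -0.52 and -1.74 to -0.49. Transcript 4 stood for 49 and 33 (-1.62 to -0.28). For transcript 6 they were 13 and 23, and its interval of -0.58 to 1.57 held 0. Transcripts 3 and 5 were under 400 bases, where the fit was not applied, so 2 of the 3 higher values carry no counting interval. The 3 higher transcripts were 277, 390 and 425 bases long and the 3 lower ones 409, 548 and 600. The part of length in the division was not tested. Summed over the 4 with estimates, there were 189 fragments in NCD (163 to 218) and 129 in HFD (108 to 153).

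**Figure D4:**
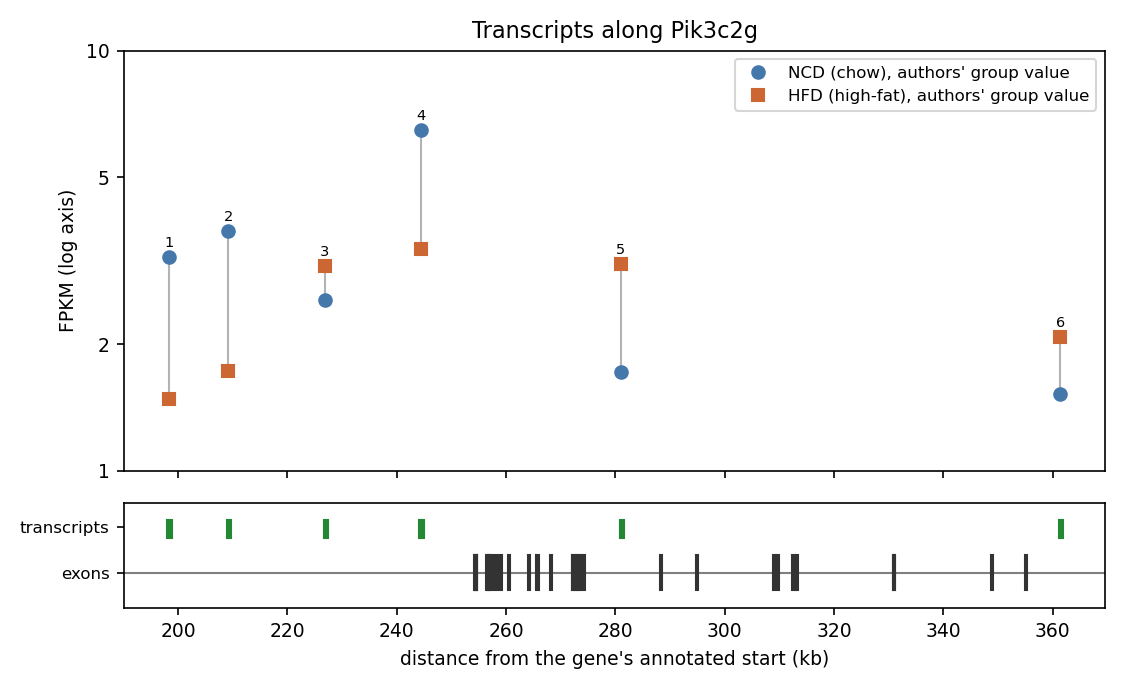
FPKM (log axis) of the 6 Pik3c2g transcripts in NCD (circles) and HFD (squares), 1 authors' value per diet, against distance from the annotated gene start in kb, with annotated exons (black) and transcript intervals (green, drawn at least 0.8 kb wide) below. Transcripts 1, 2 and 4 are lower in HFD and transcripts 3, 5 and 6 higher, and the first 4 lie in 1 intron.

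The genes also differed in level, on the per-length FPKM scale. In NCD, Inpp4b transcripts ran from 0.153 to 1.39 FPKM (median 0.441) and Pik3c2g transcripts from 1.52 to 6.46 (median 2.88), with no overlap. The nearest values of the ranges, 1.39 and 1.52 FPKM, were close. Both genes were chosen by these FPKM values, so their levels are given as descriptions only. In HFD the ranges were 0.472 to 3.95 (median 0.732) and 1.48 to 3.36 (median 2.57), and overlapped through Inpp4b transcript 2. The median of all transcripts was 2.53 (NCD) and 1.42 FPKM (HFD). The genes also differed in length of transcript, 351 to 8813 bases in Inpp4b and 277 to 600 in Pik3c2g. Intronic transcripts outside both genes of 277 to 600 bases had medians of 3.57 (NCD) and 1.60 FPKM (HFD). Those of at least 1000 bases had 2.31 and 1.27. The part of length in the difference of level was not tested.

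Other genes of phosphoinositide metabolism and signalling mostly held lower values in HFD as deposited. Of 135 genes in 7 lists, 18 held a transcript, and 16 of these were neither Inpp4b nor Pik3c2g. Their 28 transcripts had 5 higher and 23 lower values in HFD (80.0% of all transcripts were lower). At least 2-fold higher were 2 (6.27% of all transcripts) and at least 2-fold lower 9 (41.9%). Their median log2 ratio of -0.81 was close to the -0.82 of all transcripts. With the 20 members included, the median over 48 transcripts was -0.62, and 0.19 after subtracting the table's median. The members were chosen on this ratio, so the 0.19 is not read as a value of the other genes.

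Among the other phosphatase genes, Mtmr12, a myotubularin-related gene whose product lacks catalytic activity, held 3 transcripts at log2 ratios of 1.14, 0.11 and -1.37. Ocrl, the 5-phosphatase gene mutated in Lowe syndrome, held 1 at 5.82 (NCD) and 3.33 FPKM (HFD) (-0.79). Of the kinases, Pik3ca, the catalytic alpha subunit of class I, held 1 at 3.16 and 1.94 FPKM (-0.68). Pikfyve, which makes endosomal phosphoinositides, held 1 at 8.84 and 2.77 FPKM (-1.64), and Pi4kb, a Golgi lipid kinase gene, 1 at 2.42 and 2.35 (-0.04). As 80.0% of all transcripts were lower, nothing particular to either enzyme class is read from these.

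Plcl1, a phospholipase C-like gene without lipase activity, held 8 transcripts, 2 higher and 6 lower (80.0% of all transcripts were lower). Their median was -0.73. Like Inpp4b it was low in level, at a median of 0.999 (NCD) and 0.620 FPKM (HFD). Plcb4, a G protein-coupled phospholipase C gene, held 1 transcript at 3.76 and 2.01 FPKM (-0.87). Of the receptor and effector genes, Igf1r, the insulin-like growth factor receptor, held 1 at 14.0 and 7.19 FPKM (-0.95). Phlpp1, an Akt phosphatase gene, was at -1.62 and Foxo3, a transcription factor restrained by Akt, at -1.17. In the list of inositol phosphate and lipid supply genes 1 of 9 transcripts was higher (20.0% of all transcripts were). That 1 lay in Dgkg, a diacylglycerol kinase gene, at a log2 ratio of 2.46, beside another at -0.66. The higher one touched an annotated exon. At 0.298 FPKM in NCD it was below 0.410, so it could be listed only by being higher in HFD. The highest level of that list was in Dgkd, of the same family, at 14.0 (NCD) and 8.48 FPKM (HFD) (-0.71).

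**Figure D5:**
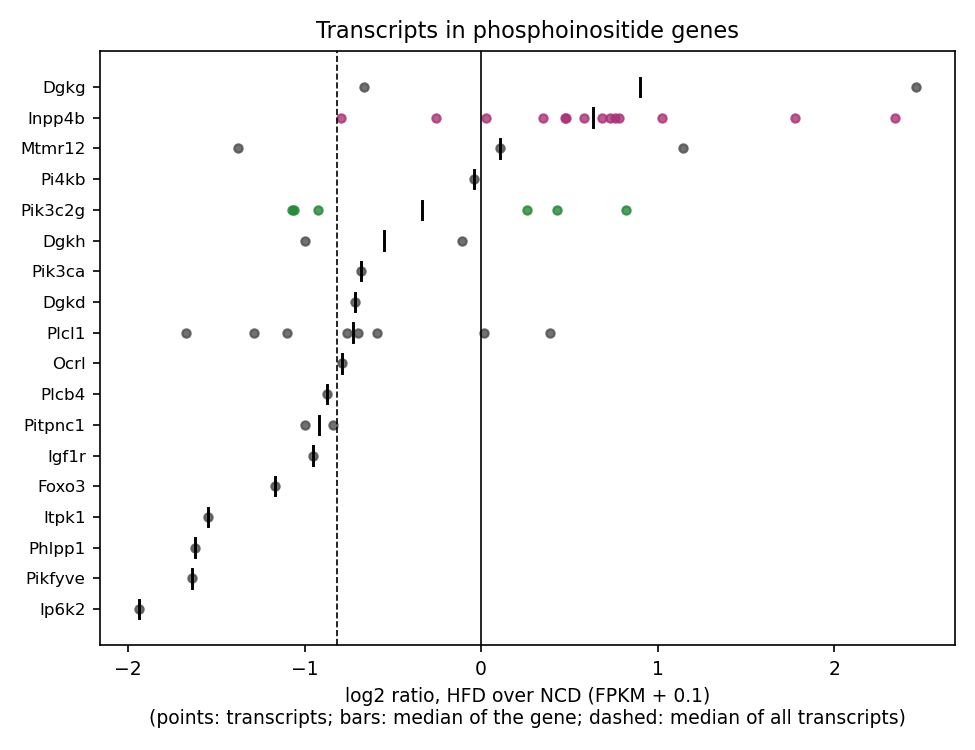
Log2 ratio, HFD over NCD (FPKM + 0.1), of the 48 transcripts (points) in 18 phosphoinositide genes, with the median of each gene (bars), 0 (solid line) and the median of all transcripts, -0.82 (dashed). Inpp4b and Pik3c2g are coloured. The medians of Dgkg, Inpp4b and Mtmr12 lie above 0 and the other 15 below.

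Genes were also ranked by their median log2 ratio among the 72 genes with at least 5 transcripts. Both genes were chosen on this ratio, so their place in the order is not a finding and serves only to name neighbours. Among the genes nearest to Inpp4b were Pdzrn3, a ubiquitin ligase gene (0.36, 7 of 9 transcripts higher), and Kcnip4, a potassium channel-interacting protein gene (0.08, 6 of 11). Nearest to Pik3c2g were Pkhd1, the fibrocystin gene (-0.35, 1 of 5), Ctnna2, an alpha-catenin gene (-0.38, 1 of 7), and E130308A19Rik (-0.52, 0 of 6). The likeness is of a median over 2 diet values and says nothing of the level, which was 3.38 FPKM in NCD in Kcnip4 at the median.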

How the data were processed

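Islet total RNA of 3 NCD and 3 HFD libraries was sequenced from Illumina TruSeq libraries, per the labels' protocols. The deposited table gives FPKM, 1 column per diet, per the file headers. How the authors combined libraries and with which aligner, assembler and quantifier is not given in the sources used here. Builds GRCm38 and mm10 come from the submitters' processing notes. Library depths are not known. Totals were fitted to steps in the low values and assume that each column was counted from 1 pool. The planned limma test needs values per library and was not run. Both values and their log2 ratio (pseudocount 0.1) are described instead. The minimum of 0.1 FPKM in 1 group removed 0 transcripts. Intervals were assigned to the GENCODE M21 gene overlapped most, ties going to the longer gene. No member was tied. All members were named. In the phosphoinositide lists, the rule named genes with at least 3 transcripts and the highest transcript of each list. Other list genes were chosen after their values were seen. For likeness it took the 3 nearest medians among genes with at least 5 transcripts, and 1 of these is not reported here. Members and lists were chosen with earlier results of these data known. The fit was tested on simulated data. Tools were Python 3.11.15, numpy 2.4.6, pandas 2.3.3 and scipy 1.17.1.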

Additional observations from a re-analysis of the deposited data

How the results depend on the processing

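No paired analysis was possible because each diet has a single column, which also means that leaving out a library was not run. Over all transcripts the median log2 ratio was -0.55 with a pseudocount of 1, 0 after median centring by construction and after quantile normalization, and -0.98 for intronic transcripts only. The Inpp4b median was above 0 in every alternative run. It was 0.73 with a pseudocount of 0.01, 0.26 with 1, 1.45 after centring and 1.51 after quantile normalization. Among the 3 members with at least 1 FPKM in 1 diet it was 0.78. Every alternative reuses the values that chose the gene. No pseudocount changes the sign of a ratio, and centring on a negative median raises each ratio. The sign is therefore not read as support. Inpp4b members higher in HFD numbered 14 after either scaling and 2 of 3 with the 1 FPKM minimum. At or above 0.410 FPKM in both diets, an alternative chosen after seeing the data, they numbered 7 of 9. Those at least 2-fold higher numbered 1 with a pseudocount of 1, 11 after centring, 11 after quantile normalization and 1 with the 1 FPKM minimum. The Pik3c2g median changed sign, to 0.49 after centring and 0.53 after quantile normalization, and was -0.99 over the 4 members of at least 400 bases, of which 1 was higher. Its members at least 2-fold lower numbered 0 with a pseudocount of 1 and 0 after either scaling, which gave 3 at least 2-fold higher. For all transcripts, no share was counted after either scaling, with another pseudocount or with the 1 FPKM minimum. The member counts under these alternatives therefore stand without a share to set them against. The phosphoinositide list median, members included, was -0.29 with a pseudocount of 1 and -0.85 with the 1 FPKM minimum. It changed sign to 0.19 after centring and 0.19 after quantile normalization. Directions for Pik3c2g and the list therefore hold for the values as deposited. Dropping the filter, leaving out transcripts at 0, counting any overlap and using 1 value per locus moved no median by over 0.1 and no count by over 1.5 times. The filter removed 0 transcripts, no member was listed at 0 and each member had its own locus. The alternatives on filter, zeros and loci therefore could not move the member values.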

Other observations

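The locus identifiers of the members rise with position in both genes. The 14 Inpp4b loci span a run of 19 consecutive numbers and the 6 Pik3c2g loci a run of 10, and no other transcript of the table has a number in either run. The 5 and 4 further numbers belong to no transcript analysed here, so intervals between the members may have been assembled without being listed. Gaps between neighbouring Inpp4b intervals ran from 0.507 to 74.7 kb, and between Pik3c2g intervals from 10.3 to 79.9 kb.

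Across the 14 Inpp4b transcripts, Spearman's rank correlation between the log2 ratio and position along the gene was -0.23, and between the ratio and span -0.45. Across the 6 Pik3c2g transcripts the values were 0.89 and -0.71. The transcripts share the same libraries and, within a gene, possibly the same RNA, and these values are descriptions.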
